A study of Mus musculus with 4 samples.

Results

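Cytosolic ribosomal protein genes encode the proteins that, with ribosomal RNA, build the large and the small ribosomal subunit. They are described here in natural killer T (NKT) cells, which bind lipid antigens on CD1d through a T cell receptor of limited diversity, from the small intestine lamina propria (SI-LP). The members are the genes of the deposited count table whose symbol starts with Rpl or Rps and a digit, together with *Rplp0*, *Rplp1*, *Rplp2* and *Rpsa*; 10 *Rps6k* kinase genes and 9 names with "-ps" were left out. This rule gave 90 of the 25239 genes of the table. Of these, 77 are the canonical genes (46 of the large and 31 of the small subunit), and 13 are paralogs or genes that only share the name. All 4 RNA-seq libraries came from WT C57BL/6Jax mice that had received an anti-ARTC2 nanobody before the tissue was taken. The methods name young adults of both sexes for the experiments as a whole and give no sex for these libraries. The cells were sorted as live TCRβ+ cells that bound the PBS57-loaded CD1d tetramer and lacked B220, CD11b, CD11c and CD8. Replicates 3 and 4 belong to a first experiment and replicates 1 and 2 to a second. There is 1 condition, so the values describe a level and its spread between libraries and not an effect. The labels do not say whether each library came from its own mouse, and p-values then measure only the spread between these samples.

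A ribosome carries 1 copy of nearly every ribosomal protein, and growing cells make these proteins in matched amounts. Their mRNAs are among the most abundant in most tissues. Many start with a 5′ terminal oligopyrimidine (TOP) element, a C followed by a run of C and T letters at the first transcribed bases, through which mTOR and the RNA-binding protein Larp1 control their translation together. T cells raise ribosome production when they are activated and start to divide.

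The start of the members is shown first, because the shared letters there are a feature of sequence that the choice by name did not use. A promoter was found for 68 of the 90 members in the RefSeq table of build GRCm38.p6, on the chromosome of the deposited row. The run sought was a C followed by at least 4 letters that are C or T, on the sense strand. It had to begin within 5 bases of the annotated start. Of the 68 members, 30 held it, or 44.1%, against 19.0% of 18647 genes of the table with a promoter. The share was 23.2% among the 69 mitochondrial ribosomal protein genes with a promoter, whose products build another ribosome, and 33.3% among the 21 translation factors with one. The 30 bases around the annotated start are printed for 7 members with such a run, which is given in capitals, 5′ to 3′ and with 15 bases before the annotated start and 15 from it on.
Rps10 (chr17:27635230-27635259, minus strand): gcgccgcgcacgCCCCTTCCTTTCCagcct
Rpl15 (chr14:18270972-18271001, minus strand): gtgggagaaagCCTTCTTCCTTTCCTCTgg
Rpl27a (chr7:109519180-109519209, plus strand): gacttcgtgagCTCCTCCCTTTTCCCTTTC
Rpl35 (chr2:39005117-39005146, minus strand): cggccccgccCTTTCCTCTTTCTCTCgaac
Rps6 (chr4:86857353-86857382, minus strand): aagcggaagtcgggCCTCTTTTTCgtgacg
Rplp2 (chr7:141447636-141447665, plus strand): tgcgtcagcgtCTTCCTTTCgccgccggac
Rps27 (chr3:90213634-90213663, minus strand): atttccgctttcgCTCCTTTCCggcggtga
The next 4 members, among them some of the most abundant, hold no such run at the annotated start.
Rpl41 (chr10:128549154-128549183, minus strand): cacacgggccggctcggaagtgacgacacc
Rps3 (chr7:99483695-99483724, minus strand): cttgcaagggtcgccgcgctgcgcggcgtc
Rps4x (chrX:102189377-102189406, minus strand): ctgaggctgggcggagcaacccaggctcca
Rpl26 (chr11:68901551-68901580, plus strand): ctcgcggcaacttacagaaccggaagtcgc
The levels of both kinds were close. The median TPM (counts per gene length, scaled to a common sum in each library) was 1397 for the 24 canonical members with a run that passed the filter on low counts and 1507 for the 30 without. In these windows a match is a description of letters, and no match says only that the run is not within these bases of the annotated start.

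The libraries held 3882803 to 8732858 counts on genes. Tests and ranks used the 11689 genes for which 2 or more libraries had 10 counts or more. Of the members 83 passed, 74 of them canonical. T cell markers (7 genes, such as *Cd3e*) took 0.128% to 0.372% of counts, above the level of B cell, myeloid, stromal and mast cell markers (each at most 0.0194%) in every library. T cell markers lay below plasma cell markers in replicates 1 and 2, and below epithelial markers in replicates 2 and 4. Epithelial markers (20 genes, such as *Epcam*) took 0.102% and 1.24% of counts in the second experiment and 0.0188% and 3.03% in the first. Plasma cell markers took 0.627% and 0.782% in the second, and 0.000547% and 0.0248% in the first. Single genes carried much of these shares. *Lyz1* alone held 84299 of the 117487 epithelial marker counts of replicate 4. *Jchain* held 44022 of 45318 plasma cell marker counts in replicate 1 and 66662 of 68319 in replicate 2. The part of these other cells in the values of ribosomal protein genes was not tested.

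The 90 members together took 2.83% of all counts in replicate 1 (95% Wilson interval 2.81% to 2.84%), 4.31% in replicate 2 (4.30% to 4.33%), 3.97% in replicate 3 (3.96% to 3.99%) and 4.07% in replicate 4 (4.05% to 4.09%), a mean of 3.80% ± 0.663 (SD, n = 4). The interval covers counting error only, and it was far narrower than the spread between libraries. The methods name MarkDuplicates for quality control of the alignments. They do not say that copies made by PCR were left out of the counts, so counted reads may not be separate molecules. Replicate 1 stood lowest and the other 3 lay close together. *Rn45s*, the gene of the ribosomal RNA precursor, held 11.4%, 7.36%, 28.1% and 21.6% of all counts in replicates 1 to 4. Without it the members took 3.19%, 4.66%, 5.53% and 5.19%, so both libraries of the first experiment then lay above both of the second. Because most members are short, their share of TPM was larger, at 9.97%, 13.3%, 14.4% and 12.3% in replicates 1 to 4. In bulk samples, fewer cells of a type and less RNA per cell cannot be told apart.

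**Figure D1:**
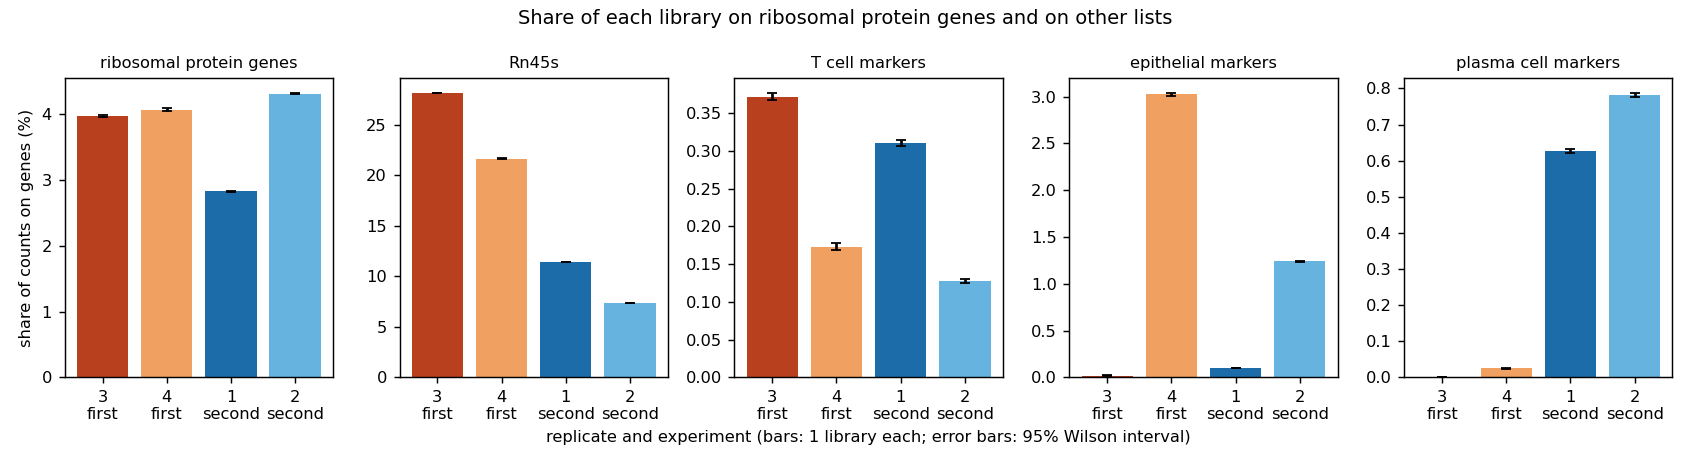
Share of gene counts (%, 1 panel per list, each axis from 0) on the ribosomal protein genes, *Rn45s* and the T cell, epithelial and plasma cell markers; each bar is 1 library, in the order replicate 3, 4 (first experiment), 1, 2 (second experiment), with its 95% Wilson interval. The ribosomal protein genes range from 2.83% to 4.31%, while the epithelial markers range from 0.0188% to 3.03%. *Lyz1* alone holds 84299 of the 117487 epithelial marker counts of replicate 4, and most plasma cell marker counts of replicates 1 and 2 are on *Jchain*.

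Ribosomal protein genes were near the top of the range of expression. The median member stood at the 99.2 percentile of TPM among the genes that passed the filter, and 76 of the 83 lay above the 90th percentile. Translation factors (28 genes) had a median percentile of 96.3, ribosome biogenesis genes (44) of 62.0 and mitochondrial ribosomal protein genes (78) of 60.1. The mean TPM of 53 canonical members was over 1000.

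The highest level was that of *Rpl41*, which encodes the shortest protein of the large subunit, with 3566, 7283, 3732 and 6664 TPM in replicates 1 to 4 and a mean of 5311 ± 1937 (SD, n = 4). Its 2 high libraries, replicates 2 and 4, came from different experiments. *Rpl32*, of the large subunit, followed with 3709 ± 762 TPM (SD, n = 4). *Rps29*, a small zinc-binding protein of the small subunit, had 3694 ± 1177 TPM. *Rps4x*, the X-linked gene of a protein of the small subunit, had 3587 ± 742 TPM. These 3 means differed by less than the SD of any of them. *Rplp2*, an acidic protein of the ribosomal stalk to which elongation factors bind, had 2333, 3504, 3707 and 2885 TPM in replicates 1 to 4. *Rpl4*, which lines the exit tunnel of the nascent peptide, had 3253, 3122, 3569 and 2329 TPM. *Rps3a1*, *Rps3*, *Rps23* (a protein of the decoding centre) and *Rps25* closed the 10 highest, with means from 2754 to 3033 TPM. From *Rps29* to *Rps25* each neighbour in this order differed from the next by less than its SD between libraries.

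**Figure D2:**
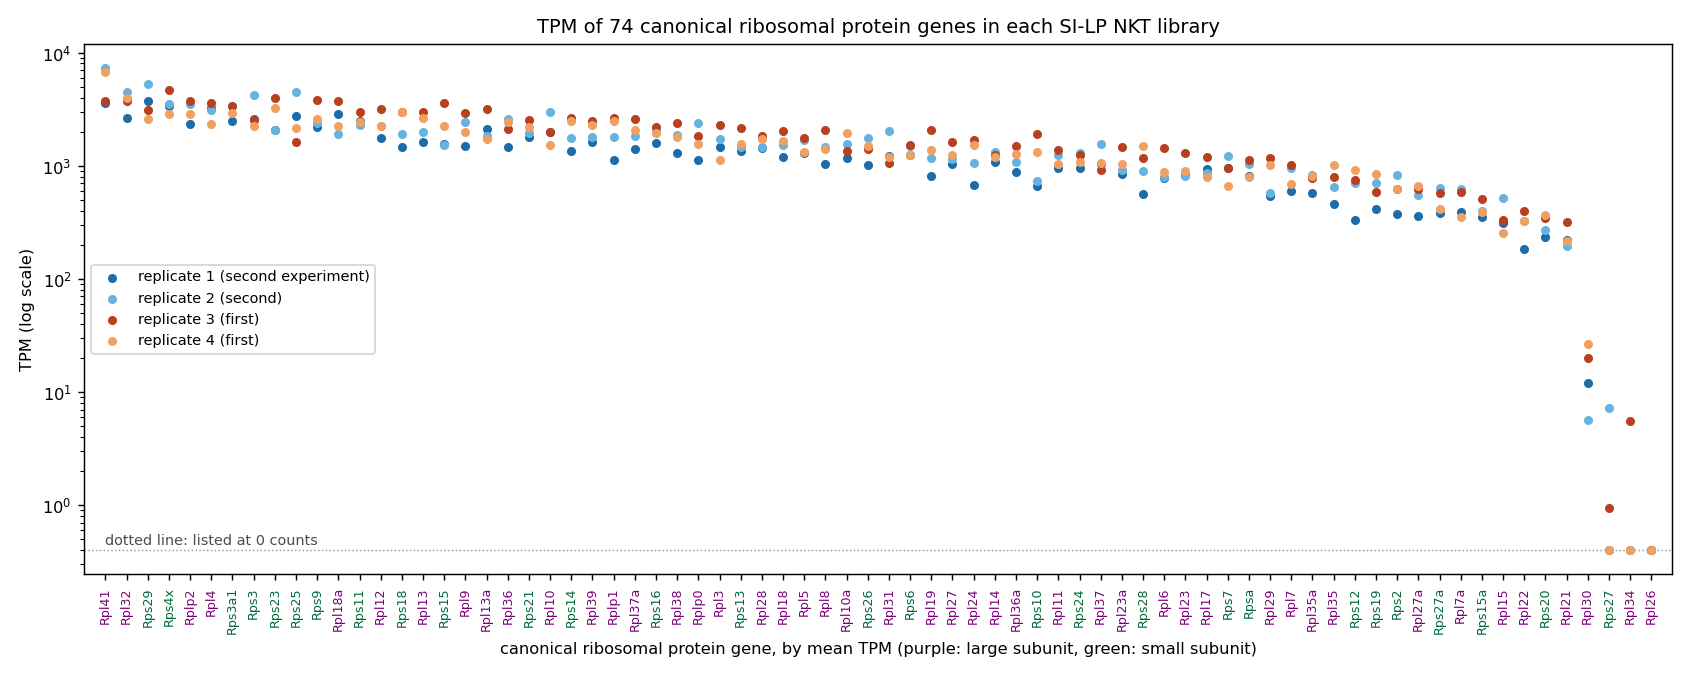
TPM (log scale) of 74 of the 77 canonical ribosomal protein genes, ordered by their mean, in the 4 SI-LP NKT libraries (1 point per library, blue for the second and red or orange for the first experiment; names in purple for the large and green for the small subunit). From *Rpl41* to *Rpl21* the means run from 5311 to 237 TPM, and *Rpl30*, *Rps27*, *Rpl34* and *Rpl26* lie far below at 16.1 TPM or less; libraries with 0 counts are drawn on the dotted line.

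In the lower part of the order, 6 members lay between 237 and 487 TPM. *Rpl21* had 221, 195, 316 and 214 TPM in replicates 1 to 4. *Rps20*, a small subunit protein that is ubiquitinated when ribosomes collide, had 233, 269, 348 and 364 TPM. *Rpl22*, a protein needed for the development of αβ T cells, had 185, 326, 400 and 325 TPM. *Rpl15*, *Rps15a* and *Rpl7a* had means of 355, 413 and 487 TPM. *Rps15a* and *Rps20* have exon lengths in the table of 5134 and 3446 bases, which lowers a value per length. On CPM (counts after scaling the libraries by edgeR's TMM factors), which ignores length, *Rps15a* had 785 CPM and *Rps20* 390 CPM, against 871 CPM for *Rpl41*. Over the 74 canonical members that passed the filter, Spearman's rho between exon length and mean TPM was -0.36, and between exon length and mean CPM 0.34. All points come from the same 4 libraries.

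Then the order broke off. *Rpl30* had 18, 12, 23 and 27 counts in replicates 1 to 4, *Rps27* 0, 14, 1 and 0, *Rpl34* 0, 0, 7 and 0, and *Rpl26* 0 in every library. Here 0 counts of a library allow up to 0.753 CPM in the shallowest library and 0.287 CPM in the deepest (3 counts). These 4 genes code for structural proteins of every cytosolic ribosome, and the next canonical gene above them, *Rpl21*, had 640 to 1231 counts. The same 4 genes are the canonical members whose exons in the deposited table overlap most with those of another gene on the same strand. *Rpl26* shared 95.8% of its exon bases with *Gm15772*, *Rpl30* 76.0% with *Gm12191*, *Rps27* 60% with *Rps27rt* and *Rpl34* 59.9% with *Rpl34-ps1*. No other canonical member shared over 13.5%, the value of *Rps21*. The 4 overlapping genes had 0 counts in every library.

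The coordinates of these pairs differ between annotations of the same build. The deposited table places *Gm15772* on chromosome 11 at 68901589 to 68904534, inside *Rpl26* (68901566 to 68904534), whereas the RefSeq table of GRCm38.p6 places it on chromosome 5 at 3236390 to 3236928. *Gm12191* lies over *Rpl30* on chromosome 15 in the deposited table and on chromosome 11 at 49678620 to 49679143 in RefSeq. *Rps27rt* lies inside *Rps27* on chromosome 3 in the deposited table and on chromosome 9 at 114982366 to 114982739 in RefSeq. *Rpl34-ps1* lies inside *Rpl34* on chromosome 3 in the deposited table and on chromosome 6 at 71124589 to 71125001 in RefSeq. Of the 90 members, all had a RefSeq entry and 89 had it on the chromosome of the deposited row, *Rps27rt* being the exception. In its usual setting featureCounts leaves out a read pair that overlaps more than 1 gene, and the command in the header of the table has no option that changes this. Across the whole table, 4.21% of the 784 genes with at least 50% of exon bases shared on the same strand passed the filter on low counts, against 47.7% of the 24455 other genes. The part of the overlap in the low counts of the 4 genes was not tested on reads, so their values are given as those of the table and not as levels of the mRNA.

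**Figure D3:**
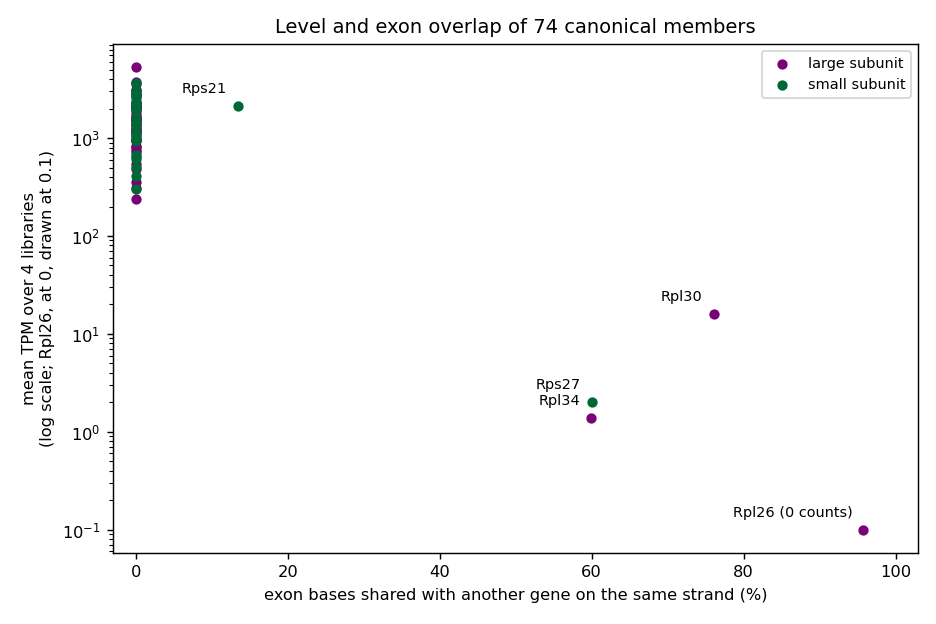
Mean TPM over the 4 libraries (log scale) of 74 of the 77 canonical members against the share of their exon bases (%) that another gene of the deposited table covers on the same strand; purple points are large and green points small subunit genes. *Rpl30*, *Rps27*, *Rpl34* and *Rpl26*, at 59.9% to 95.8%, are the 4 lowest, and *Rps21*, at 13.5%, had 2121 TPM; *Rpl26*, with 0 counts, is drawn at the bottom of the axis.

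Overlap on the opposite strand, which counting without regard to strand cannot separate, touched mainly *Rpl5* (47.7% of exon bases), *Rpl31*, *Rps25*, *Rps27a* and *Rpl32*, and their means were 503 TPM or more.

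The balance of the subunits was close between libraries. The median TPM of large subunit genes divided by that of small subunit genes was 0.814, 0.917, 0.856 and 0.737 in replicates 1 to 4, a mean of 0.831 ± 0.0755 (SD, n = 4). The order of the members was also shared. Across the 74 canonical members, Spearman's rho of log2 TPM between 2 libraries ran from 0.815 to 0.946 over the 6 pairs of libraries. It was 0.946 within the second and 0.926 within the first experiment. These genes are not independent replicates and share length and base composition in every library.

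The proportions among members were tighter than among other genes. The SD over canonical members of the log2 ratio between 2 libraries was 0.37 to 0.59, against 1.51 to 1.99 over all genes tested and 0.72 to 1.24 over the 797 other genes above the 90th percentile of TPM. The highest library exceeded the lowest by a median of 2.04-fold over the 83 members, on CPM. The same median was 5.02 over all genes tested, 3.26 over genes with at least 10 counts in every library, 4.59 over mitochondrial ribosomal protein genes, 2.44 over the other genes above the 90th percentile and 1.83 over translation factors. A ratio over 2 was found in 87.2% of all genes tested and in 47 of the 83 members. A ratio over 4 was found in 57.3% of all genes tested and in 6 of the 83 members, of which *Rpl30* alone was canonical. The other 5 (*Rps27l*, *Rps19bp1*, *Rps23rg1*, *Rpl32l* and *Rps4l*) are outside the canonical lists. Abundance differs between these sets.

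The narrowest canonical ratios were those of *Rpl14* (1.42), *Rps7* (1.47), *Rpl37* (1.48), *Rps6* (1.495) and *Rpl4* (1.54). *Rps6*, the substrate of the S6 kinases, had 574, 676, 859 and 697 CPM in replicates 1 to 4. *Rpl14* had 334, 400, 475 and 449 CPM. Wide ratios, after that of *Rpl30*, were those of *Rps10* (3.53), *Rps12* (3.40) and *Rps28* (3.25), all of the small subunit. Over the canonical genes that passed the filter, the median ratio was 2.05 for the large and 1.81 for the small subunit. *Rps10*, a protein at the entry of the mRNA channel, had 129 and 140 CPM in the second experiment and 454 and 314 CPM in the first, with no overlap between the experiments. *Rps12* had 56.9, 119, 159 and 193 CPM and *Rps28* 73.7, 115, 188 and 239 CPM in replicates 1 to 4.

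The only labelled split of the 4 libraries is the experiment. Its test sets the difference between the experiments against the spread between the libraries within each. In the quasi-likelihood test of edgeR, adjusted by Benjamini-Hochberg over all 11689 genes, 0 of the 83 members passed an adjusted p of 0.05, against a background of 0.00% of all genes. DESeq2 called 0 members and 0.351% of all genes (41). At an unadjusted p under 0.05, edgeR gave 1 member, *Rps10*, against a background of 2.12%. Its log2 fold change, second against first experiment, was -1.52 with an SE of 0.56 and an adjusted p of 0.9997 in edgeR. DESeq2 gave 4 members at an unadjusted p under 0.05, among them *Rps10*, *Rpl29* and *Rps23rg1*, against 4.44% of all genes. An exact permutation test of 2 against 2 libraries cannot go below a p of 0.333.

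The signs of the members were nevertheless uneven. The fitted log2 fold change was below 0 in 69 of the 83 members, against 48.6% of all genes. Its median was -0.59 over the members, 0.03 over all genes tested and 0.02 over the other genes above the 90th percentile. Both first-experiment libraries lay above both second-experiment libraries in 55 of 83 members, against 14.4% of all genes, and the reverse held for 3, against 14.7%. Members share libraries and scaling, so these counts do not stand for 83 separate observations. With library size alone in place of TMM the medians were -0.31 over the members and 0.28 over all genes. *Rn45s* and the epithelial and plasma cell markers also differed between these libraries, as given above, and their part was not tested.

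Within each experiment the members also shifted as a group, but not in one direction. From replicate 1 to replicate 2, log2 CPM differed by a median of 0.38, with replicate 2 higher in 70 of 83 members, against 52.8% of all genes. From replicate 3 to replicate 4 it differed by a median of -0.23, with replicate 4 higher in 27 of 83, against 52.6% of all genes. The latter median was 0.10 with library size alone, so its sign depends on the scaling. Over genes with at least 10 counts in every library, the medians were -0.12 from replicate 1 to 2 and -0.18 from replicate 3 to 4. Replicate 2 was higher in 46.4% of these genes and replicate 4 in 43.6%. Over translation factors the same medians were 0.02 and -0.32. The spread of members around their own medians was narrow. The quartiles of members were 0.10 and 0.67 in the second and -0.51 and 0.08 in the first experiment. The quartiles of all genes were -0.998 and 1.68, and -0.77 and 1.43. Replicates 2 and 4 hold more epithelial marker counts than replicates 1 and 3. *Mki67*, a marker of dividing cells, had 58.3, 388, 29.2 and 257 CPM in replicates 1 to 4. The part of other cells or of dividing cells in these shifts was not tested.

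**Figure D4:**
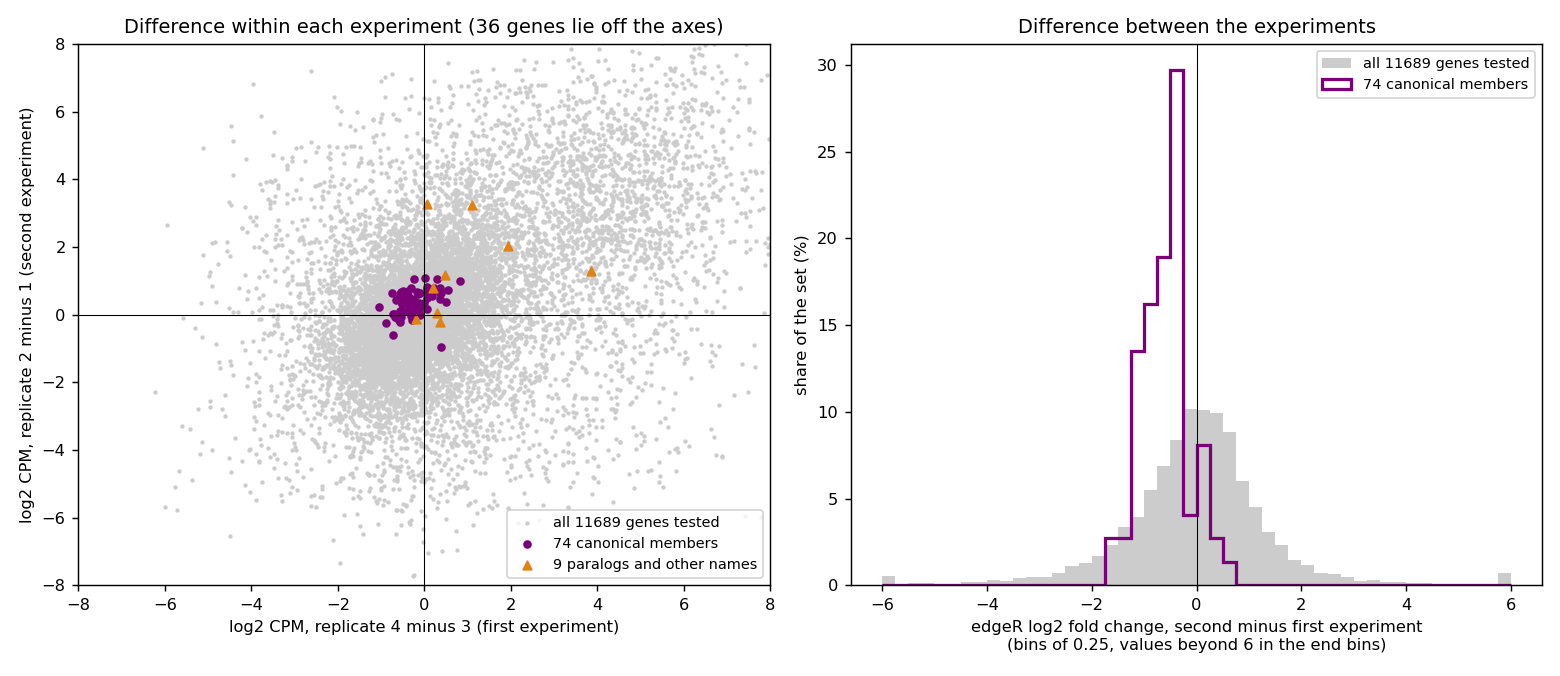
Left, difference in log2 CPM between the 2 libraries of the first experiment (horizontal) and of the second (vertical) for all 11689 genes tested (grey), the 74 canonical members (purple) and 9 paralogs and other names (orange triangles). Right, edgeR log2 fold change, second against first experiment, as a share (%) of all genes tested (grey) and of the canonical members (purple outline). The canonical members form a compact group with medians of -0.29 and 0.36 on the left, and 65 of the 74 lie below 0 on the right.

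Against the common level of the library, some members kept another proportion in each experiment. Each member's log2 TPM was set relative to the median canonical member of the same library; this removes the shift of the whole group. The range of this relative value over the 4 libraries had a median of 0.60, was under 0.5 in 33 of the 74 canonical members and over 1 in 11. Beside *Rpl30*, wide ranges were those of *Rps25* (1.69), *Rpl41* (1.20) and *Rpl31* (1.16). Another gene on the opposite strand covers 29.4% of the exon bases of *Rps25* and 33.1% of those of *Rpl31*. The part of this overlap in their ranges was not tested. *Rps25*, which some viral and cellular RNAs need for initiation without a cap, had 2776, 4460, 1629 and 2152 TPM in replicates 1 to 4, with both libraries of the second experiment above both of the first. *Rpl31* had 1230, 2014, 1061 and 1201 TPM, and replicate 2 was highest. The mean relative value differed by over 0.5 between the experiments in 18 of 74 members. It differed by -0.88 in *Rps10* and -0.65 in *Rpl29*, and by 1.23 in *Rps25* and 0.96 in *Rps29* (second minus first experiment). These genes were picked for this value, so it carries no test.

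**Figure D5:**
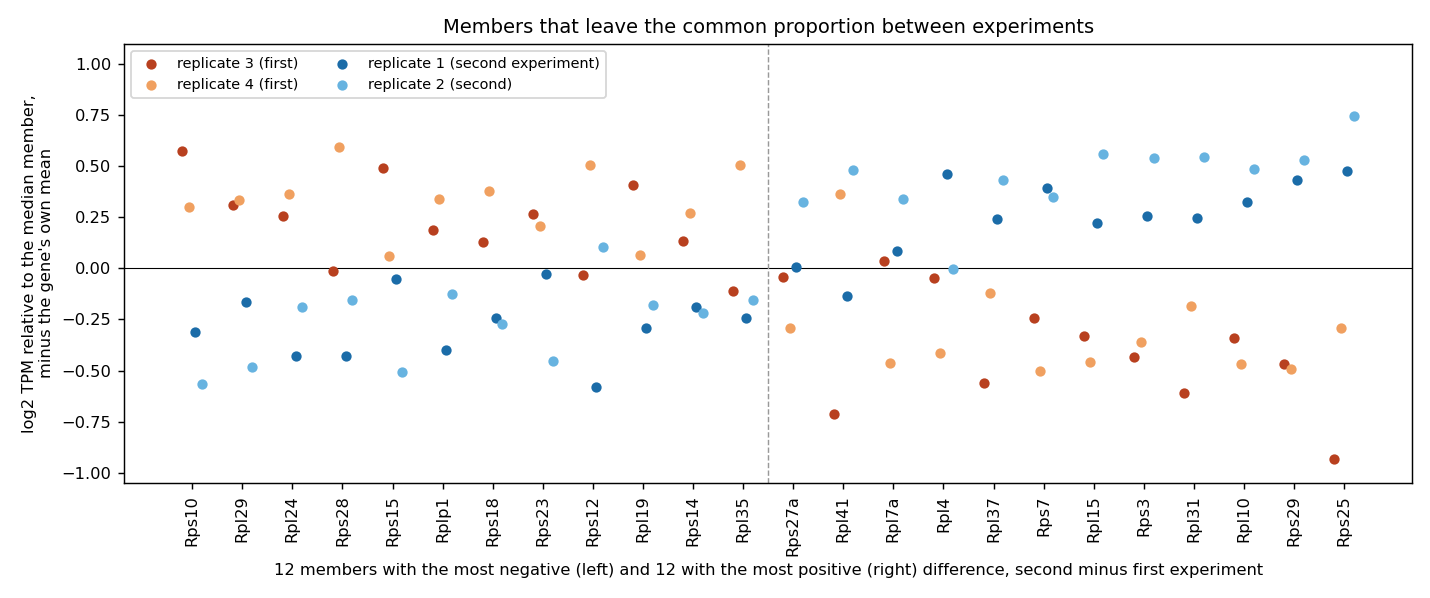
Log2 TPM relative to the median canonical member of the library, minus the gene's own mean over the 4 libraries, for 12 canonical members with the most negative (left) and 12 with the most positive (right) difference between the experiments, second minus first, without *Rpl30*; 1 point per library. The separation of the colours follows from the way the genes were picked; the size is the point, from -0.88 in *Rps10* to 1.23 in *Rps25* as the difference between the experiment means.

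Of the 13 members outside the canonical lists 9 passed the filter, with a median percentile of 55.0, and 3 lay above the 90th percentile of TPM, *Rpl36al*, *Rpl37rt* and *Rpl22l1*. *Rpl36al*, a near copy of *Rpl36a*, had 267, 242, 237 and 209 CPM in replicates 1 to 4 and the narrowest ratio of all members (1.28). Its TPM was 177.05%, 133%, 76.1% and 78.7% of that of *Rpl36a*. *Rpl22l1*, the paralog of *Rpl22*, stood at 61.5%, 80.9%, 48.4% and 83.9% of the TPM of *Rpl22*. *Rpl37rt*, a retrocopy of *Rpl37*, stood at 13.1% to 21.7% of the TPM of *Rpl37*. *Rpl7l1*, *Rpl32l*, *Rps4l* and *Rps23rg1* were at 3.69% or less of their parents *Rpl7*, *Rpl32*, *Rps4x* and *Rps23* in each library. Counts of near-identical copies are uncertain, since reads that fit both can be placed on either.

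*Rpl3l*, which is known from muscle, *Rpl10l*, which is known from testis, and *Rps27rt* had 0 counts in all libraries. *Rpl39l*, also known from testis, had 149 counts in replicate 2 and 0, 1 and 0 in replicates 1, 3 and 4. *Rpl32l* had 168 counts in replicate 2 and 10 to 14 in the others. *Rps27l*, the paralog of *Rps27*, had 129, 767, 65 and 226 counts, so it was measured while *Rps27* was at or near 0. *Rps23rg1*, a retrogene of *Rps23*, had 32.7 and 28.1 CPM in the second and 5.80 and 7.53 CPM in the first experiment, the opposite order from *Rps23* itself (384 and 372 CPM against 900.0 and 725 CPM). Neither gene passed the adjusted threshold in edgeR. *Rps4l* had 0, 27, 19 and 38 counts. *Rps19bp1*, which encodes a protein that binds Rps19 and is no part of the ribosome, had 64, 230, 2 and 42 counts. The 9 names with "-ps" that were left out had 0.434 counts for every 100 counts on members on average over the libraries, most of them on *Rpl14-ps1* and *Rps6-ps4*, 2 names picked after their values were seen.

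Ribosomal proteins whose symbols the rule does not take had similar levels. *Fau*, the ubiquitin-like fusion that yields a small subunit protein, had 190, 195, 555 and 374 CPM in replicates 1 to 4. *Rack1*, a scaffold on the small subunit, had 329, 597, 630 and 609 CPM. Both had a fitted log2 fold change below 0, -1.27 and -0.42, and neither passed the adjusted threshold in edgeR.

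Among genes that work with ribosomes, 28 translation factors, 44 ribosome biogenesis genes and 17 growth signalling genes passed the filter. In edgeR 0 genes of each list were called in either direction, against 0.00% of all genes. With that background the counts say nothing about the lists. *Eef1a1*, which brings aminoacyl-tRNA to the ribosome, had 5310, 4891, 7280 and 5284 CPM in replicates 1 to 4, and *Eef2*, which moves the ribosome along, had 2243, 2293, 3412 and 2027 CPM. *Tpt1*, another TOP mRNA, had 1455, 1225, 2386 and 1201 CPM. Replicate 3 was highest in these 3 genes, as it was for the median canonical member, but the lowest library was replicate 2 or 4, and for the median canonical member it was replicate 1. The median fitted log2 fold change was -0.23 over translation factors and -0.27 over ribosome biogenesis genes. *Myc*, which drives ribosome production in activated T cells, had 34.5, 24.0, 39.1 and 102 CPM, with replicate 4 far above the others.

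The genes whose log2 TPM over the 4 libraries lay closest to the pattern of the median canonical member, among 8008 non-members with at least 10 counts in every library, were *Rrp15* (root mean square distance 0.048), *Psme2* (0.051), *Fth1* (0.061), *Pigs* (0.079) and *Frmd4b* (0.080). *Psme2* encodes a subunit of a proteasome activator and *Fth1* the ferritin heavy chain. The median distance was 0.22 for canonical members and 0.76 for the other genes. The canonical members are set here against their own median, so a smaller distance follows in part from the choice of reference. Abundance also differs between the sets. Each gene was centred on its own mean before the distance was taken, so closeness concerns the pattern over the libraries and not the level. With 4 libraries it is a description only.

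The canonical members lie on 19 chromosomes, with 14 of the 77 on chromosome 7. Chromosome 7 held 18.2% of the canonical members and 8.94% of the genes of the table.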

How the data were processed

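RNA-seq of 4 libraries of SI-LP NKT cells was used, 2 from each experiment as the sample labels name them. The authors deposited raw counts per gene, made per the methods and the file header with HISAT2 and featureCounts 1.6.4 on exons of a RefSeq annotation, primary alignments of read pairs and no strand option. The deposited gene lengths, which are not a measurement, entered TPM. The methods name GRCm39 and a NovaSeq, the labels GRCm38.p6 and a HiSeq, and coordinates are on GRCm38 as deposited. The table held 2 more library columns that match no label and were not used.

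TPM came from counts and lengths, CPM from edgeR's TMM factors, and log2 CPM had a prior count of 2. The filter asked for 10 counts or more in 2 or more libraries, and genes that passed were tested with edgeR's quasi-likelihood test. The test was checked on simulated counts, with 11571 genes at low dispersion and 11202 at the dispersion measured over all genes. Of genes changed by 2 log2 units, it found 96 of 99 at low and 0 of 93 at the measured dispersion. Of genes changed by 4 log2 units, it found 100 of 100 and 0 of 94. At each size of change, false calls were 10 at low and 0 at the measured dispersion. The members vary less between libraries than all genes tested, and recovery at their spread was not tested.

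The members, gene lists and alternatives were chosen with earlier results of these data known. Named genes are the 10 highest and 10 lowest canonical members by mean TPM, the 5 widest and 5 narrowest in ratio, the 5 widest in relative level, all members outside the canonical lists, members called or with a library far from the others, 9 fixed genes and the 5 genes most alike; other names were chosen after their values were seen, and a few genes that the rule takes are not reported here. Alternatives were DESeq2, other scaling and filters, another prior count, other denominators and units, other windows of the start motif, and leaving out each replicate; counts without *Rn45s* in the tests were added after the data were seen. Total counts per library set the smallest level that can be shown (3 counts). Tools were R 4.3.3, edgeR 4.0.16, DESeq2 1.42.0, limma 3.58.1, scipy 1.17.1, pandas 2.3.3, numpy 2.4.6 and Python 3.11.15.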

Additional observations from a re-analysis of the deposited data

Results flagged for a closer look

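In 6 of the 88 members and related genes examined, 1 library lay far from the other 3, which stood close together (gap to the nearest library divided by the whole range above Dixon's 95% critical value for 4 libraries); chance gives about 4.4. In *Rps26*, which sits at the mRNA exit, replicate 1 had 151 CPM, against 256 to 268 CPM in the other libraries (gap 0.898 of the range). In *Rps2*, replicate 1 had 126 CPM, against 252 to 266 CPM elsewhere (0.899). In *Rack1*, replicate 1 had 329 CPM, against 597 to 630 CPM elsewhere (0.892). So in these 3 genes replicate 1 was the low library, as it was in the summed share.

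In *Rps4x*, replicate 3 had 1827 CPM, against 1090 to 1124 CPM elsewhere (0.953). In *Rpl13a*, replicate 3 had 1311 CPM, against 611 to 723 CPM elsewhere (0.839). *Rpl13a* encodes a large subunit protein that phosphorylation can release in cells exposed to interferon-γ. In *Rpl32l*, replicate 2 had 16.1 CPM, against 1.39 to 3.26 CPM elsewhere (0.872).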

How the results depend on the processing

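Calls of members were 0 under each alternative, which at the spread of these libraries says nothing of stability. Leaving out a replicate leaves 1 library in its experiment, which is then assumed to vary like the other experiment. The number of genes called among all genes, 0 in edgeR, was 41 with DESeq2, 60 without the filter on low counts and 0 to 81 when 1 replicate was left out (10 without replicate 3, 81 without replicate 4); the cause was not tested. The median log2 fold change of members stayed below 0, from -0.31 with library size alone to -0.78 without replicate 2. The median difference of replicate 4 from replicate 3 turned from -0.23 to 0.099 with library size alone. The share of counts on members was 4.64% without *Rn45s* in the total and 5.003% without the 10 most abundant genes, since both shrink the total. The median percentile was 96.7 on CPM, which ignores length, and 99.0 when each library had to hold 10 counts or more. The large to small subunit ratio was 1.28 as a ratio of summed TPM, which also counts the 44 against 30 genes that passed the filter. The start motif was present in 19.1% of members exactly at the annotated base, 57.4% within 10 bases and 30.9% with a run of at least 7 letters, against 2.33%, 31.6% and 4.51% of genes with a promoter. Among the levels of named members, replicate 2 decided those of *Rpl32l* (5.96 CPM, 2.59 without it) and *Rps19bp1* (10.5 and 6.62 CPM), and replicate 4 that of *Rps4l* (4.09 and 2.28 CPM). No paired analysis was possible because the libraries belong to 1 condition and no replicate number is shared between the experiments. Depth limits the members at or near 0 counts.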

Other observations

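Other short stretches of letters were counted in the promoters of the members, 250 bases before to 50 after the annotated start on either strand, after the values had been seen. CCGGAAG, which ETS factors bind, was present in 36.8% of the 68 members with a promoter, in 34.8% of mitochondrial ribosomal protein genes and in 11.7% of all genes with a promoter. AAGATGGC, the core of the letters that YY1 binds, was present in 8.82% of members, 17.4% of mitochondrial ribosomal protein genes and 3.18% of all genes. TATAAA was present in 11.8% of members and 13.03% of all genes. These are counts of letters and not of sites in use.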
